A study of Mus musculus with 4 samples.

Results

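Hyaluronan is a long, unsulphated sugar polymer of the extracellular matrix, and 10 mouse genes that make, bind or degrade it are described here: Has1, Has2, Has3, Ugdh, Cd44, Hmmr, Tnfaip6, Vcan, Hyal1 and Hyal2. The members were chosen by their gene symbols with the earlier results of these arrays known, among them the high Has2 signal of the R150C line, so their differences between arrays are given as a description with no test. They are covered by 18 of 22626 probe sets, of which 16 name a single gene. Of the genes, 9 have a probe set of their own, and 7 of those lie above the filter on dim genes, against 6197 of 12393 genes in all. Hyal1 shares both of its probe sets with its neighbour Naa80.

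RNA came from CH10T1/2 cells, a mouse embryonic fibroblast line, stably transfected with a receptor for PTH and PTHrP (PTHR1). The receptor was either the R150C variant found in enchondromas, which are benign cartilage tumours, or the wild type, called the R150C and WT lines here. Cells of each line were kept overnight in serum-free medium and then given 1e-07 M PTHrP or carrier for 1 h. The 4 groups were R150C with PTHrP, R150C with carrier, WT with PTHrP and WT control, for which the sample's own label names no carrier. There was 1 Affymetrix Mouse Genome 430A 2.0 array per group, so no difference between a pair of arrays has a replicate check. Each receptor is represented by 1 transfected line, so receptor and line cannot be told apart. The labels do not say whether a line is a clone or a pool. The Pth1r probe set read 3.2 to 3.4 in the R150C line and 3.3 to 3.9 in the WT line, near the floor of the arrays; it may not detect the transfected cDNA, whose species the labels do not name, so it checks nothing.

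Hyaluronan is made at the plasma membrane by 3 synthases, Has1, Has2 and Has3, which join UDP-glucuronic acid to UDP-N-acetylglucosamine and push the growing chain out of the cell. Ugdh makes the UDP-glucuronic acid. Outside the cell the polymer is organised by proteins such as versican (Vcan) and TSG-6 (Tnfaip6), is held and sensed by receptors such as CD44, and is cut by hyaluronidases. In mesenchyme and developing cartilage Has2 is the main synthase, and hyaluronan-rich coats accompany proliferation and migration of fibroblasts.

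Values are the deposited signals, fluorescence intensities on a linear scale. Differences are of log2(signal + 16) after centring each array on the median of the 6197 genes above the filter, and they understate the change of dim genes. Pairs of arrays differed with an SD of 0.25 (log2) around additive effects of line and treatment, computed over those genes. This SD is 1 value for dim and bright genes and holds no spread between independently transfected lines, so a difference given in SDs is no test. Fibroblast markers were bright, with 9 of 10 above the filter and a summed signal of 31364 to 33869.9 in the R150C line, against 36135.7 to 40636.6 in the WT line. Of 7 macrophage, 5 endothelial and 5 epithelial markers 2, 0 and 1 reached the filter, and none of these markers read above 125.2. Of 6 chondrocyte markers Col2a1, at up to 1481, and Sox9 were above the filter. On the Gapdh controls the 3' probe set read 1.21 and 0.99 times the 5' one in the R150C line (PTHrP, carrier) and 1.17 and 0.84 times in the WT line (PTHrP, control), and on the actin controls 2.31 and 2.13 against 2.39 and 1.42.

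The upstream sequences of the members whose signals differed most between the lines are shown for their promoter motifs. RefSeq promoters (GRCm38.p6) matched 8 of the 10 genes, and Has2 and Has3 are named only. The 250 bases before an annotated start are given 5′ to 3′ on the gene's strand for Has1 (chr17:17855189-17855438, minus strand), Cd44 (chr2:102901666-102901915, minus strand) and Ugdh (chr5:65435843-65436092, minus strand), which were brighter in the R150C line, and for Tnfaip6 (chr2:52037863-52038112, plus strand), which was dimmer. Capitals mark matches to the motifs searched.
Has1: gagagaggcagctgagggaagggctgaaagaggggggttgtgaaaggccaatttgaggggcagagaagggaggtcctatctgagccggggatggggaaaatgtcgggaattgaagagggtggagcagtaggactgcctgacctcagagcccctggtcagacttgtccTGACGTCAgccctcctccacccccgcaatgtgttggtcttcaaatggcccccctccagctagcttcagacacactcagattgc
Cd44: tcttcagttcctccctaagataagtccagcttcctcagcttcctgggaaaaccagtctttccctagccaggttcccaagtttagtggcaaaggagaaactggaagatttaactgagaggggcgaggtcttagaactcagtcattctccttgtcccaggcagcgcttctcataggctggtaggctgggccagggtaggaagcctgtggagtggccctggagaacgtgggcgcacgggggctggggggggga
Ugdh: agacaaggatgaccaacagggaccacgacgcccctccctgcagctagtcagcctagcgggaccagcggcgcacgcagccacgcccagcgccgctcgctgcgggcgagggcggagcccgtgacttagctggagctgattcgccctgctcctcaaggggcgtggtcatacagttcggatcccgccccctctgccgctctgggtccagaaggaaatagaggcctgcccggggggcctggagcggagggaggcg
Tnfaip6: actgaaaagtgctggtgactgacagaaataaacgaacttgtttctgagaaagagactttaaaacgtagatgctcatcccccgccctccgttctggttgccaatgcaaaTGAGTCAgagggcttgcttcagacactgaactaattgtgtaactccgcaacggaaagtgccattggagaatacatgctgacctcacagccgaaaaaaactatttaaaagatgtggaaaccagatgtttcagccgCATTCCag

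Both strands were searched for the cAMP response element TGACGTCA, the AP-1 sites TGACTCA and TGAGTCA, the TEAD site GGAATG, the Gli site TGGGTGGTC and the TATA box TATAAA, a choice made with results known. None of these motifs overlaps another in the windows shown. Has1 holds a full cAMP response element from base -83 to -76 before the start used, a motif found in 1.55% of the 32851 promoter windows of that length. The annotated Has1, Hyal2 and Vcan genes reach well upstream of the starts used, which are therefore not the most upstream ones. Those of Cd44 and Hmmr reach only slightly farther. Tnfaip6 holds an AP-1 site from -142 to -136, found in 4.46% of windows, and a TEAD site from -8 to -3, found in 12.6%. The Hyal2 window holds a TEAD site, from -229 to -224. The letters of the Gli site (0.225% of windows) and of the TATA box (12.4%) were in no member's window, and Cd44, Ugdh, Hmmr, Vcan and Hyal1 had no match to any motif searched. A match is a string of letters and no measure of binding.

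The comparison of the lines asked which hyaluronan genes differ between cells with the variant and cells with the normal receptor. Has2 was far brighter in the R150C line, Cd44 about 2-fold brighter by its main probe set, and Has1 and Ugdh more modestly so, while Has3 was near the floor of the arrays in both lines. Of the 7 members above the filter, Has2 and Cd44 exceeded WT by 2-fold or more both with and without PTHrP, and none was 2-fold lower in both. Over all 6197 genes the same rule counted 1.44% higher and 0.387% lower. At 1.5-fold, a threshold added with the results in view, Has1 joined them, making 3 higher and 0 lower, against 3.36% and 2.16% of all genes. Since the members were chosen with these differences known, nothing is read from the counts or from the medians that follow. The median difference of the 7 members was 0.58 under PTHrP and 0.78 without it, where all genes above the filter had medians of -0.07 and -0.04.

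Has2 encodes the synthase that makes most hyaluronan in mesenchymal cells. Its brighter probe set read 728.4 and 731.1 in the R150C line (PTHrP, carrier) and 59.5 and 84.3 in the WT line (PTHrP, control). Its second probe set read 589.8 and 564.1 in the R150C line and 15.9 and 32.8 in the WT line. Both probe sets were high on both R150C arrays and low on both WT arrays, and the lines did not overlap. The signal ratio of R150C to WT was 12.2 under PTHrP and 8.67 without it by the first, and 37.1 and 17.2 by the second. Of the WT signals behind these ratios, both of the second probe set and the PTHrP one of the first lie below the filter level of 62.6. On the log2 scale the first differed by 3.28 and 2.87 and the second by 4.23 and 3.54. Only 3 genes above the filter were higher in the R150C line by more than Has2 over both media.

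Has1, a synthase usually found at low levels, read 147.3 and 186.4 in the R150C line (PTHrP, carrier) and 81.1 and 99.4 in the WT line (PTHrP, control). Both R150C values lay above both WT values, and the differences were 0.73 under PTHrP and 0.78 without it. Each is about 3 SD of a pair of arrays. Has3, the synthase of shorter chains, read 4.7 and 4.2 in the R150C line and 9.8 and 4.8 in the WT line. All 4 readings are far below the filter, so no order is read from them.

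Ugdh, the enzyme that supplies UDP-glucuronic acid, has a single probe set, which read 1922.8 and 2114.4 in the R150C line (PTHrP, carrier) and 1265.4 and 1190.7 in the WT line (PTHrP, control). The lines did not overlap, with signal ratios of 1.52 under PTHrP and 1.78 without it. Its differences of 0.58 and 0.79 put it just outside the 1.5-fold rule, which Has1 met, while Cd44, at 1.24 and 1.01, lay just inside the 2-fold rule. Under PTHrP Ugdh ran from 0.56 to 0.66 over the settings and Has1 from 0.53 to 0.83. Which of them met the 1.5-fold rule therefore depended on the setting.

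Cd44 is the main cell surface receptor of hyaluronan, and its transcript is known for alternative splicing. Its brighter probe set read 944.5 and 945.8 in the R150C line (PTHrP, carrier) and 385.1 and 452.3 in the WT line (PTHrP, control), ratios of 2.45 and 2.09. The other Cd44 probe set read 154.8 and 226.8 in the R150C line and 88.1 and 228.5 in the WT line. It differed by 0.69 under PTHrP and by -0.04 without it, so the probe sets disagree on the arrays without PTHrP. The files do not say which transcripts each one detects. In the 2081 genes with another probe set above the filter, the second brightest was compared with the brightest. Without PTHrP its difference between the lines was lower by at least 1 (log2) in 52 genes and higher by as much in 10. Under PTHrP the counts were 16 and 24. What lies behind the Cd44 disagreement was not tested.

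**Figure D1:**
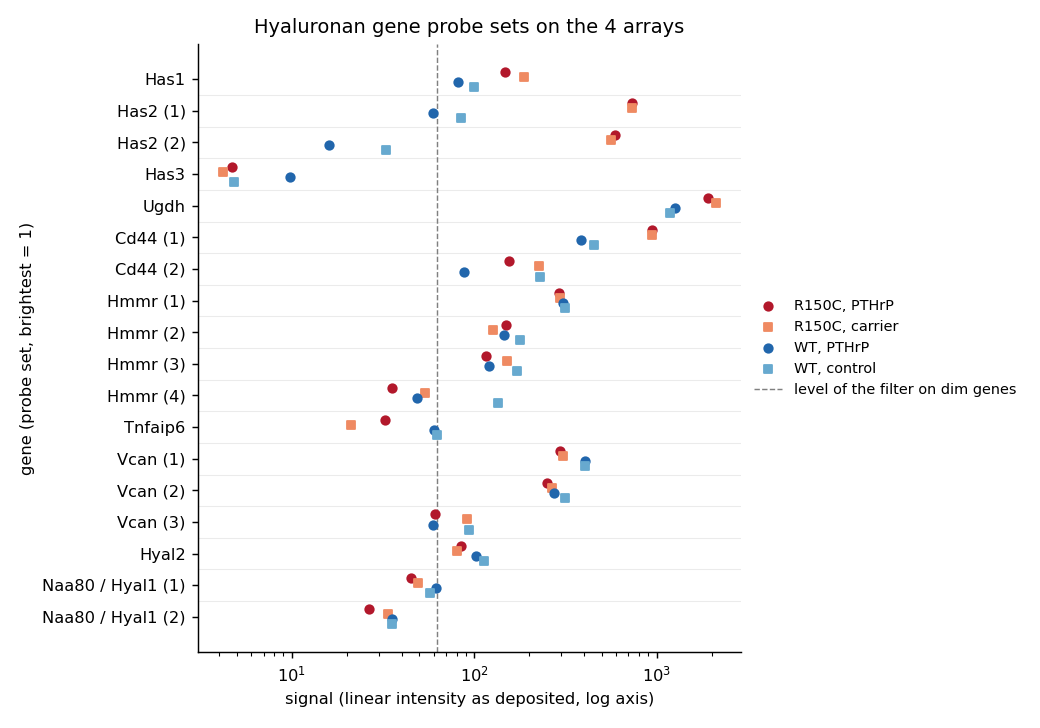
Signal of every probe set of the hyaluronan genes on the 4 arrays, on a log axis, with 1 point per array and the filter level of 62.6 as a dashed line. Both Has2 probe sets show the R150C arrays, at 564.1 to 731.1, far to the right of the WT arrays, at 15.9 to 84.3.

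**Figure D2:**
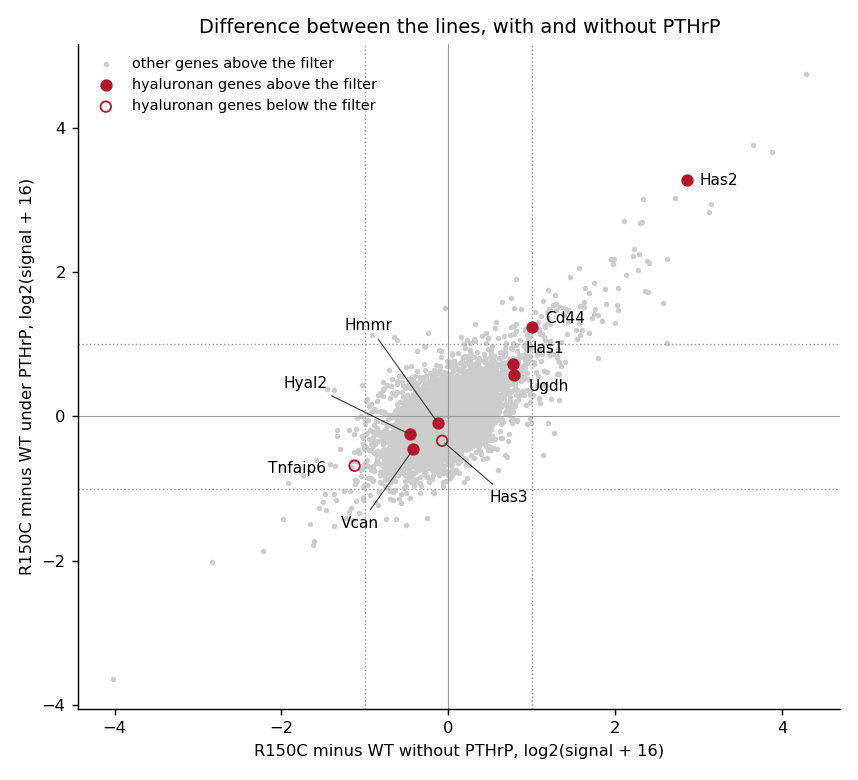
R150C minus WT without PTHrP (horizontal) against under PTHrP (vertical), as log2(signal + 16) of each gene's brightest probe set, with dotted lines at 2-fold. Has2 lies at 2.87 and 3.28, Cd44 just past both 2-fold lines, and Hmmr, Hyal2, Vcan and Has3 within the cloud of other genes.

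Among the members that bind or organise hyaluronan, Cd44 alone was brighter in the R150C line by its main probe set. Tnfaip6 encodes TSG-6, which moves heavy chains onto hyaluronan during inflammation and ovulation. It read 32.3 and 21.0 in the R150C line (PTHrP, carrier) and 60.5 and 62.8 in the WT line (PTHrP, control), so the WT signals lay at the filter level and the R150C signals well under it. Both R150C arrays were lower, with differences of -0.68 and -1.12, but its mean fell under the filter, so it entered no count.

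Vcan, a large chondroitin sulphate proteoglycan that aggregates with hyaluronan, had 3 probe sets. The brightest read 295.5 and 307.6 in the R150C line (PTHrP, carrier) and 404.3 and 406.8 in the WT line (PTHrP, control), differences of -0.45 and -0.42. The second read 249.3 and 266.9 against 273.3 and 314.0, also without overlap, and differed by -0.15 and -0.25. The dimmest read 61.0 and 90.8 against 59.1 and 94.1, where the lines overlapped and differed by 0.02 and -0.08. The size of the Vcan difference therefore depended on the probe set.

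Hmmr encodes RHAMM, which binds hyaluronan at the cell surface and the mitotic spindle inside the cell. Its brightest probe set read 290.8 and 294.7 in the R150C line (PTHrP, carrier) and 307.9 and 314.4 in the WT line (PTHrP, control), differences of -0.10 and -0.12, which are within 1 SD of a pair of arrays. In 2 of its other probe sets the lines overlapped, at 149.6 and 126.4 against 145.0 and 178.8, and at 116.3 and 151.7 against 120.7 and 171.5. The dimmest, under the filter, read 35.4 and 53.9 against 48.8 and 134.3, where the WT control array alone stood high.

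Hyal2, a membrane-anchored hyaluronidase that makes the first cuts, read 85.0 and 80.0 in the R150C line (PTHrP, carrier) and 102.5 and 113.0 in the WT line (PTHrP, control). The lines did not overlap, and the differences of -0.25 and -0.46 are 1 to 2 SD of a pair of arrays. The probe sets that name both Naa80 and Hyal1 read 45.1 and 49.3 against 61.9 and 57.4, and 26.6 and 33.6 against 35.2 and 35.3. They are below the filter and cannot be assigned to Hyal1, the lysosomal hyaluronidase.

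The PTHrP comparison asked what 1 h of ligand does in each line. In neither line did a member above the filter differ by 2-fold, a size reached by 0.145% of all genes above the filter in the R150C line and by 0.387% in the WT line. In the R150C line 6 of the 7 members stayed within 1 SD of a pair of arrays, and in the WT line 5 did, shares of 85.7% and 71.4% near the 76.2% and 67.2% of all genes above the filter. The medians of the 7 were -0.03 and -0.14, against -0.01 and 0.03 over all genes. Has1 was lower under PTHrP in both lines, by -0.32 in the R150C line and -0.27 in the WT line, the second of which was -0.08 with the arrays centred on all probe sets. Has2 stood at -0.01 in the R150C line and at -0.43 in the WT line (-0.24 when centred on all probe sets), and by its second probe set at 0.05 and -0.63. Ugdh differed by -0.14 and 0.07, and Hyal2 by 0.06 and -0.14, the WT value being of either sign across settings.

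Some dimmer probe sets read lower under PTHrP than the main one of the same gene did. The second Cd44 probe set differed by -0.52 in the R150C line and -1.25 in the WT line, where the main one gave -0.01 and -0.24. The dimmest Hmmr probe set gave -0.45 and -1.23, and the dimmest Vcan probe set -0.48 and -0.57. Over the 2081 genes with another probe set above the filter, the second brightest was lower than the brightest by at least 1 (log2) in 13 genes and higher by as much in 4 for PTHrP with the R150C receptor, and in 76 and 8 genes with the WT receptor. The WT control array, where these 3 probe sets read highest, also had the lowest 3' to 5' ratios, 0.84 for Gapdh and 1.42 for actin. Of these 3 it stood apart only for Hmmr, at 134.3 against at most 53.9 on the other arrays. Among the related genes described below it also stood apart for a dimmer Msn probe set (1020.6 against at most 347.5). The dimmest Kif11 probe set did likewise (118.2 against at most 40.4). A dimmer Ugp2 probe set instead read highest on R150C with carrier (717.5). These examples were picked after their values were seen. R150C with carrier, at ratios of 0.99 and 2.13, read nearly as high for Cd44 (226.8 against 228.5) and Vcan (90.8 against 94.1). The part of the ratios in the PTHrP values, and in the line differences without PTHrP, was not tested.

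**Figure D3:**
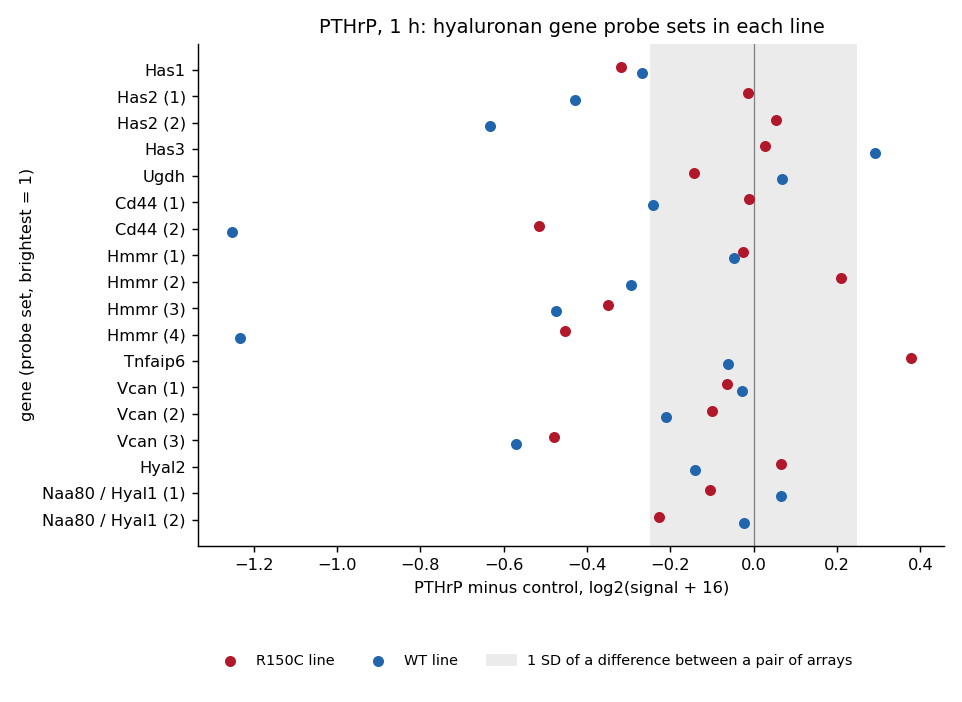
PTHrP minus control for every probe set of the hyaluronan genes in the R150C and the WT line, as log2(signal + 16), with 1 SD of a pair of arrays (0.25) shaded. Main probe sets lie between -0.43 and 0.38, and the points beyond -1 are the second Cd44 and the fourth Hmmr probe set in the WT line.

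Genes that work beside these members were taken from lists that hold no member, and were tested between the lines with limma's additive model (receptor line and treatment, Benjamini-Hochberg over 6197 genes). The lists were drawn up with earlier results of these arrays known, the Adamts1 difference among them, so nothing is read from the counts called. Of 71 listed genes 59 had a probe set of their own and 35 lay above the filter. Between the lines 0 of the 35 were higher with R150C, 4 were lower and 31 were not called, where limma called 5.52% of all genes higher and 4.18% lower. With the arrays centred on all probe sets the split was 1 and 3, and without centring 1 and 5. With no filter Adamts1 alone of the 4 was called. The median difference of the 35 was -0.02. The model has 1 residual degree of freedom, to which limma added 9.685 prior degrees of freedom pooled over all 6197 genes. Its SEs and p-values thus rest mostly on the pooled scatter of these 4 arrays, and little on the gene's own. The arrays of a line with and without PTHrP served as its replicates, so the p-values measure no spread between independently transfected lines.

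The enzymes that supply the other sugar nucleotides did not pass. Of 7 such genes above the filter none was called, with a median difference of 0.15. Uap1, which makes UDP-N-acetylglucosamine, read 280.5 and 286.1 in the R150C line (PTHrP, carrier) and 186.3 and 230.2 in the WT line (PTHrP, control), a fitted difference of 0.40 (SE 0.15, limma's adjusted p = 0.135). Ugp2, which makes the UDP-glucose used by Ugdh, differed by 0.02 (SE 0.15), and its 5 probe sets disagreed in sign.

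Of 3 other binding proteins above the filter none was called. Ptx3, a pentraxin that cross-links heavy chains in the hyaluronan matrix, read 893.0 and 1058.1 in the R150C line (PTHrP, carrier) and 627.7 and 740.9 in the WT line (PTHrP, control). Both R150C arrays were higher, with a fitted difference of 0.48 (SE 0.15, limma's adjusted p = 0.07), and limma called Ptx3 higher in 4 of the 8 alternative settings. Habp4, an intracellular RNA-binding protein, differed by -0.02. The cartilage proteoglycan Acan read 41.7 and 36.6 against 19.5 and 37.8, and the link protein Hapln1 at most 15.1, both below the filter. None of 5 other receptors with a probe set (Lyve1, Stab1, Stab2, Tlr2 and Tlr4) reached the filter.

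Other degradation and export genes, 4 above the filter, had no call, and Hexa, a lysosomal hexosaminidase, differed by -0.13 and the transporter gene Abcc5 by 0.10. Cemip, which is needed for hyaluronan breakdown in fibroblasts, was below the filter. The main probe set of Cemip2 differed by -0.17 and its other one by 0.47 under PTHrP and 0.46 without it. The 6 linkers and sheddases of CD44 had a median of 0.12 and no call, with Msn (moesin) at -0.08 and the protease gene Mmp14 at 0.01. These are values of the main probe sets. The second Msn probe set, also above the filter, differed by -0.04 under PTHrP and by -1.54 without it. Without PTHrP a dimmer probe set of Rdx (-0.93) and of Adam17 (-1.28) lay below the main ones (0.37 and -0.25). Another of each stayed near the main one, at 0.31 and -0.18.

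Both versican-cleaving proteases above the filter were lower in the R150C line. Adamts1 read 176.2 and 186.2 in the R150C line (PTHrP, carrier) and 677.2 and 907.5 in the WT line (PTHrP, control), a fitted difference of -2.05 (SE 0.16, limma's adjusted p = 1.69e-05), a result known when the list was drawn up. Adamts5 read 587.9 and 639.8 against 1118.0 and 1108.9, a difference of -0.87 (SE 0.15, limma's adjusted p = 0.00405). The second Adamts5 probe set read 156.9 and 169.5 against 306.7 and 334.9. For both genes the lines did not overlap. Adamts4 and Adamts15 were below the filter.

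Of 13 mitotic genes above the filter, set beside Hmmr because RHAMM works on the spindle, 2 were lower and 11 did not pass, with a median of -0.31. Kif11, a spindle motor, read 68.2 and 63.3 in the R150C line (PTHrP, carrier) and 108.5 and 124.6 in the WT line (PTHrP, control). The fitted difference was -0.72 (SE 0.15, limma's adjusted p = 0.0137), and both R150C signals lay close to the filter level. A second Kif11 probe set, above the filter and nearly as bright, read 67.5 and 73.7 against 90.1 and 95.3. It differed by only -0.37 under PTHrP and -0.34 without it. The dimmest Kif11 probe set, below the filter, differed by -0.57 and -1.40. Kif11 was not among the genes called with no filter or with the filter at the 75th percentile. Mki67, a proliferation marker, read 403.7 and 376.9 against 601.9 and 535.7, a difference of -0.55 (SE 0.15, limma's adjusted p = 0.0407). For Mki67 limma's adjusted p was 0.0694 at its largest over the main centring, the centring on all probe sets, no centring and quantile normalization. It was not called with centring on all probe sets, quantile normalization, a pseudocount of 1, the mean of all probe sets or no filter.

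**Figure D4:**
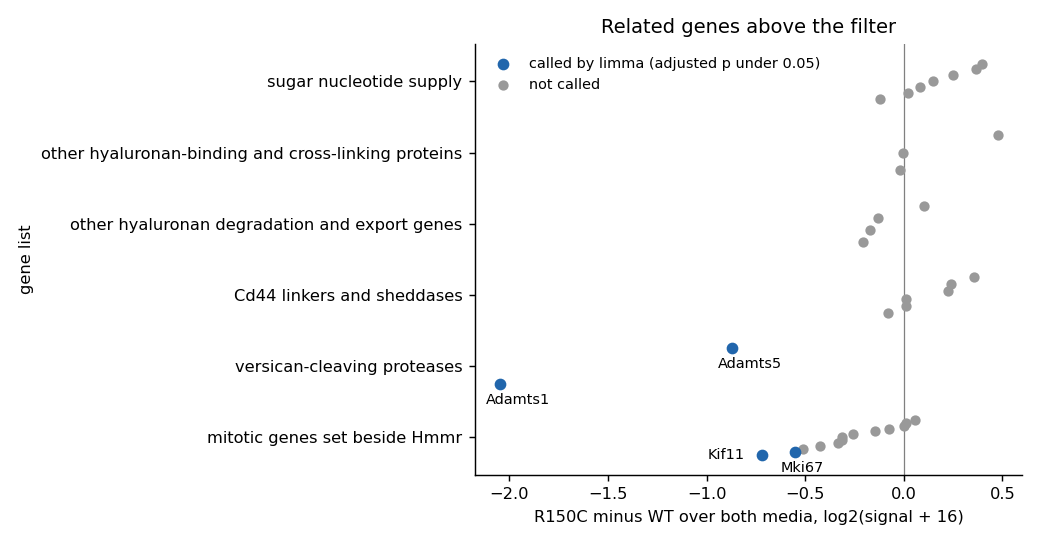
Fitted difference between the lines over both media, as log2(signal + 16), for the genes above the filter in 6 related lists. The 4 genes called by limma, Adamts1, Adamts5, Kif11 and Mki67, lie to the left of 0, and the other 31 points between -0.51 and 0.48.

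For PTHrP over both lines limma called 0% of the 6197 genes, and so none of the 35 related genes, with 345 genes at an unadjusted p under 0.05. The median of the 35 was -0.05. Gfpt1, which feeds glucosamine into the pathway, had the largest value among the sugar enzymes, at -0.55 (R150C line) and -0.54 (WT line; limma's adjusted p = 0.564), and was picked after its values were seen.

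The 3 genes above the filter whose profile over the 4 arrays lay nearest to that of Has2 were Dusp6, a phosphatase of ERK, Ereg, a ligand of the EGF receptor, and Sema7a, a membrane-anchored semaphorin. Their Euclidean distances from Has2 were 0.27, 0.35 and 0.43 (log2). Dusp6 read 747.9 and 696.3 in the R150C line (PTHrP, carrier) and 76.9 and 90.1 in the WT line (PTHrP, control). Ereg read 1067.1 and 1187.7 against 123.2 and 117.2, and Sema7a 322.6 and 284.9 against 25.5 and 42.5. Since the 3 were picked for profiles near that of Has2, the gap between their lines follows from the choice. Both WT signals of Sema7a lay below the filter level. For PTHrP in the WT line Dusp6 differed by -0.21, Ereg by 0.04 and Sema7a by -0.51, where Has2 stood at -0.43. Profiles of 4 arrays mostly record the difference between the lines.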

How the data were processed

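The deposited table holds a fluorescence intensity per probe set. Per the submitters' processing notes the authors used Affymetrix Expression Console (version and summarisation not given in the sources used here). The 2% trimmed mean intensity was 150.1 on every array, so the arrays had been scaled to one level. The brightest probe set stood for each of 12393 genes, genes with a mean log2(intensity + 16) at or above the median over genes were kept, and arrays were centred on the kept genes. The platform annotation gave 20380 probe sets 1 symbol, 691 several and 1555 none; 64 controls were left out.

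limma 3.58.1 (R 4.3.3) fitted receptor line and treatment over the 6197 kept genes (Benjamini-Hochberg, 0.05). The step was also run on simulated data with independent noise of the same SD for every gene, which does not show how it performs on these arrays. Members, lists and settings were chosen with earlier results of these data known. Named were all members, every called gene of a list or else its 2 brightest kept genes, and the 3 profiles nearest to the member with the largest difference. Gfpt1, Cemip2, Rdx, Adam17 and genes below the filter were named outside this rule, after their values were seen. Alternatives were other centrings, quantile normalization, pseudocounts of 1 and 64, the mean of all probe sets, and no filter or one at the 75th percentile.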

Additional observations from a re-analysis of the deposited data

How the results depend on the processing

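Has2 and Cd44 were the 2 members at least 2-fold apart in both media under 5 of the 8 alternatives. The count was 1, Has2 alone, with a pseudocount of 64, with the mean of all probe sets and with the filter at the 75th percentile. With the mean of all probe sets Cd44 stood at 0.98 under PTHrP and 0.55 without it. The differences of Has2 ran from 2.66 to 3.76 under PTHrP and from 2.40 to 3.27 without it, and Has1, Cd44 and Ugdh were above 0 and Hyal2, Vcan and Tnfaip6 below 0 between the lines in every setting. Of 288 member values under the alternatives 271 moved by no more than 1 SD of a pair of arrays and 17 by more, 9 of these with the mean of all probe sets, and no 2-fold value changed sign. Centring on all probe sets moved the median of all genes above the filter by 0.06 (R150C) and 0.19 (WT) in the PTHrP response and by 0.12 between the lines without PTHrP. With it the PTHrP difference of 3 of the 7 members above the filter changed sign in each line, among them Hyal2 in the WT line, at 0.05. Under PTHrP in the WT line Has1 ran from -0.33 to -0.08 and Has2 from -0.52 to -0.24 over the settings. Related genes called between the lines numbered 3 to 6, except 1 (Adamts1) with no filter, where 59 genes were tested. Adamts1 was called in all 8 alternatives. Over all genes limma called 466 higher and 237 lower when centred on all probe sets, and 112 and 35 with no filter, against 342 and 259. For PTHrP it called 22 and 3 when centred on all probe sets, 1 without centring and 0 in the other alternatives, and no related gene in any. Replicate numbers pair no arrays, since each group has 1; the additive model already holds the line as a block in the PTHrP comparison. Dim members (Has3, Tnfaip6 and the Hyal1 probe sets) are limited by signal over background.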
